A study of Mus musculus with 20 samples.

Results

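The effect of propafenone on tumour RNA was measured over both immunotherapy backgrounds of a mouse melanoma experiment. The 10 tumours of mice given propafenone, 5 with it alone and 5 with it and anti-PD-1, were set against the 10 tumours of mice not given it, 5 with control IgG and 5 with anti-PD-1. All 20 tumours of the series thus entered, chosen by their treatment labels, and anti-PD-1 was an additive factor of the model. Tumours were of B16F10, a melanin-producing melanoma line of C57BL/6 origin, grown in immunocompetent C57BL/6 mice labelled wild type. Injections were intraperitoneal and began when a tumour had reached about 100 mm3, and tumours were excised on day 16. The 4 groups are called IgG, propafenone, anti-PD-1 and combination below. The line is a transplanted one, whole tumours were sequenced, and the labels do not say whether each tumour came from its own mouse, so the tests measure the spread between these tumours. Doses, the sex and the age of the mice are not given in the labels.

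Propafenone is a sodium channel blocking antiarrhythmic drug that also blocks some potassium channels and beta-adrenergic receptors. The title of the series ties it to ferroptosis, a cell death driven by iron-dependent peroxidation of membrane lipids, which glutathione and the peroxidase Gpx4 hold back, and to mitochondria, which make ATP through respiratory complexes coded in part by mitochondrial DNA. Anti-PD-1 blocks an inhibitory receptor of T cells. Interferon gamma, made by T and NK cells, raises guanylate-binding proteins and antigen presentation genes, and type I interferons raise an overlapping set.

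Each library held 55985437 to 64514815 estimated counts, with group medians of 60671716 (IgG), 62444074 (propafenone), 61705052 (anti-PD-1) and 62006958 (combination), and 15875 of 32285 genes passed the filter on low counts and were tested. CPM, counts scaled to the TMM-adjusted library total, is the level used throughout, and a log2 change is with minus without propafenone unless another contrast is named. The tumours held their labelled cell type's genes: the 19 tested members of that list summed to between 19610 and 31240 CPM in every tumour, and the melanosome protein gene Pmel alone ranged from 2549 to 5438 CPM. The TMM scaling factors ran from 0.926 to 1.045, and the 2 lowest belonged to IgG tumour 5 and anti-PD-1 tumour 2, both without propafenone. These and 3 more tumours (IgG 4, propafenone 4 and propafenone 5) held over 1000 CPM of the haemoglobin gene Hbb-bs, and list medians that shift without these 5 tumours are also given without them.

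No gene passed the threshold of an adjusted p under 0.05 for propafenone over both backgrounds: edgeR called 0 of 15875 genes (0%), and the lowest adjusted p was 0.29. At an unadjusted p under 0.05 there were 1934 genes (12.2%), 716 of them higher with propafenone (4.51%) and 1218 lower (7.67%). DESeq2 called 2 genes, Chil3 (higher, adjusted p = 0.00500) and Rps27l (lower, adjusted p = 0.0439). Over the other 33 alternatives adjusted p ran from 0.0859 to 0.664 for Chil3 and from 0.145 to 0.664 for Rps27l, and limma voom and limma on log2(TPM + 1) or log2(TPM + 0.1) called 0. In the same edgeR fit the anti-PD-1 factor called 1286 genes (8.1%), 616 higher (3.88%) and 670 lower (4.22%). Within each background edgeR called 0 genes for propafenone, with 754 at an unadjusted p under 0.05 (4.75%) without anti-PD-1 and 1552 (9.78%) with it. The interaction, which tests whether the propafenone effect differed between backgrounds, also called 0, with 482 at an unadjusted p under 0.05 (3.04%). The values below are therefore descriptions of levels and differences, and "higher" or "lower" is the sign of a difference that did not pass. Counts of list members at an unadjusted p under 0.05 stand beside those shares of all genes, 4.51% higher and 7.67% lower.

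Among genes on the higher side, the smallest p and a mean of at least 1 CPM belonged to Chil3, a chitinase-like protein secreted by macrophages and neutrophils (Ensembl ENSMUSG00000040809, chromosome 3, 106147554 to 106167564, GRCm38). It measured 0.164, 1.904, 0.797, 0.205 and 0.755 CPM in IgG tumours and 0.238, 2.55, 4.74, 1.896 and 5.80 CPM in propafenone tumours. Anti-PD-1 tumours held 0.575, 0.634, 0.765, 0.552 and 0.274 CPM and combination tumours 1.52, 2.86, 1.55, 3.04 and 4.999 CPM. All 5 combination tumours lay above all 5 anti-PD-1 tumours, while propafenone tumours 1 and 4 fell among the IgG tumours, and 6 of the 10 tumours with the drug exceeded the highest without it. The log2 change was 2.15 ± 0.46 SE (95% interval 1.20 to 3.10, edgeR adjusted p = 0.29), with 1.99 without and 2.32 with anti-PD-1. Chil3 has close paralogues, and how reads shared among them were counted is not given in the sources used here.

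The other leading genes on the higher side had smaller differences, and all had an adjusted p of 0.29. Tnfaip6, a hyaluronan-binding protein induced in inflammation, ranged from 0.963 to 2.03 CPM, median 1.45, without propafenone and from 1.23 to 3.31 CPM, median 2.27, with it (log2 change 0.67 ± 0.16 SE). Samhd1, a dNTP hydrolase that restricts viruses and is raised by interferon, ranged from 52.2 to 71.0 CPM, median 57.6, and from 60.2 to 92.0 CPM, median 75.3 (0.31 ± 0.08 SE). Itga10, a collagen-binding integrin chain, stood at 0.63 ± 0.16 SE, and Tvp23a, a Golgi membrane protein, at 0.48 ± 0.12 SE. Wdr91, a regulator of endosome maturation, ranged from 41.3 to 51.4 CPM, median 46.9, and from 48.0 to 59.0 CPM, median 53.6, a difference of 0.21, with 7 of 10 tumours above the highest without the drug. Safb2, a nuclear scaffold protein, stood at 0.22 ± 0.05 SE. In every one of these 6 genes the tumours with and without propafenone overlapped when both backgrounds were pooled. Within backgrounds, all propafenone tumours lay above all IgG tumours for Wdr91 and Safb2, which overlapped with anti-PD-1. All combination tumours lay above all anti-PD-1 tumours for Tnfaip6, Samhd1 and Itga10, which overlapped without anti-PD-1. Tvp23a overlapped in both backgrounds.

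Xist, the RNA that silences an X chromosome in female cells, was also among the 8 genes with the smallest p on this side. It measured 2.90, 0.855, 2.22, 3.63 and 1.46 CPM after IgG, 2.75, 4.36, 2.66, 5.08 and 3.99 CPM after propafenone, 5.59, 5.94, 3.74, 5.82 and 5.19 CPM after anti-PD-1 and 9.26, 6.18, 12.6, 8.29 and 10.8 CPM after the combination. All 5 combination tumours exceeded all 5 anti-PD-1 tumours, and the log2 change was 0.81 ± 0.20 SE (0.77 without and 0.84 with anti-PD-1). Levels of Xist were far below those of the melanocyte genes in every tumour. The labels do not give the sex of the mice.

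On the lower side the smallest p belonged to Rps27l, a p53-induced relative of a small ribosomal subunit protein (ENSMUSG00000036781, chromosome 9, 66946086 to 66949516, GRCm38). IgG tumours held 129, 145, 137, 139 and 144 CPM and propafenone tumours 127, 133, 123, 115 and 121 CPM. Anti-PD-1 tumours held 138, 149.6, 149, 118 and 127 CPM and combination tumours 117, 112, 98.2, 104 and 104 CPM. All 5 combination tumours lay below all 5 anti-PD-1 tumours, and 6 of 10 tumours with propafenone lay below the lowest without it. The log2 change was -0.26 ± 0.05 SE (95% interval -0.36 to -0.15, adjusted p = 0.29), with -0.17 without and -0.35 with anti-PD-1. Rps27l, Mif and Rplp1 have processed pseudogenes, so their counts carry the uncertainty of shared reads.

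**Figure D1:**
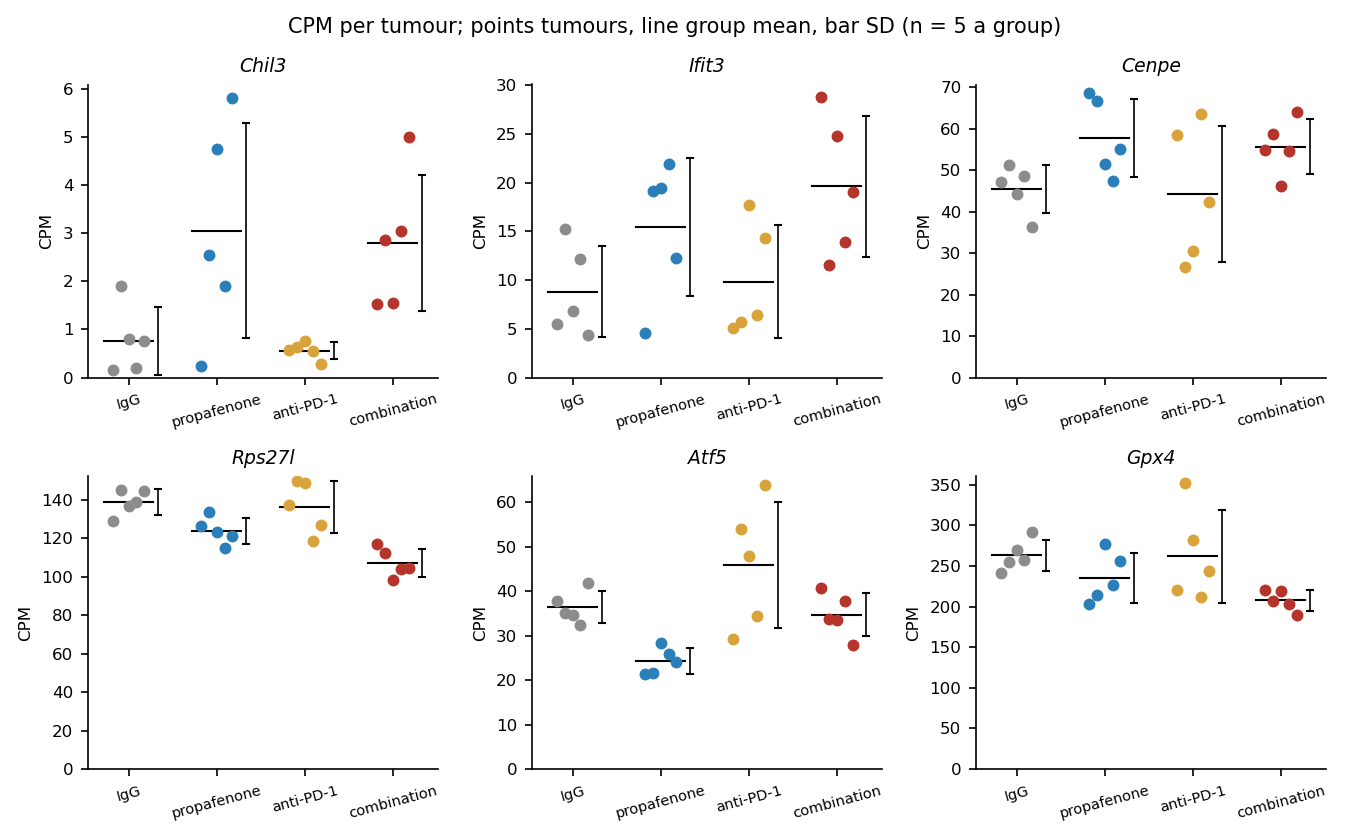
CPM (y axis, from 0) of 6 genes in each of the 4 groups (x axis); each point is 1 of 5 tumours, lines are group means and bars are the SD. Chil3 and Ifit3 have higher means with propafenone in both backgrounds and Rps27l, Atf5 and Gpx4 lower means, and the tumours with and without the drug overlap in every panel when both backgrounds are pooled.

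Atf5, a transcription factor of the integrated and mitochondrial stress responses, had a larger difference than its neighbours on the lower side. It measured 37.8, 35.1, 34.6, 32.5 and 41.8 CPM after IgG and 21.5, 21.5, 28.3, 25.9 and 24.1 CPM after propafenone, so that those groups did not overlap. After anti-PD-1 it measured 29.2, 54.1, 48.0, 34.5 and 63.8 CPM and after the combination 40.8, 33.7, 33.6, 37.8 and 27.8 CPM, groups that did overlap. The log2 change was -0.49 ± 0.11 SE (-0.58 without and -0.40 with anti-PD-1, adjusted p = 0.29).

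Mif, a cytokine that inhibits macrophage migration, ranged from 554 to 839 CPM, median 661, without propafenone and from 476 to 624 CPM, median 551, with it (-0.29 ± 0.06 SE). Med16, a Mediator subunit, stood at -0.31 ± 0.07 SE, Aurkaip1, a mitochondrial ribosome protein, at -0.23 ± 0.05 SE, and Prdx2, a cytosolic peroxiredoxin, at -0.19 ± 0.05 SE. Thap12, a nuclear zinc finger protein, had a small difference of -0.16 ± 0.04 SE with little spread: 8 of the 10 tumours with propafenone lay below the lowest without it. Rplp1, of the ribosomal stalk, stood at -0.23 ± 0.05 SE. All had an adjusted p of 0.29.

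No gene separated the 10 tumours with propafenone from the 10 without it with no overlap of CPM. Within backgrounds, 196 genes (1.23%) were free of overlap between propafenone and IgG tumours and 377 (2.37%) between combination and anti-PD-1 tumours. Mrps23, of the small mitochondrial ribosomal subunit and named after its values were seen, was free of overlap in both backgrounds and lower with propafenone, with a log2 change of -0.17. No gene was free of overlap in both backgrounds on opposite sides.

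The ribosomal protein genes, which code for the translation machinery of the cytosol, differed little but in a uniform direction. Of 40 members none was higher with propafenone, against 49.4% of all genes tested, and 36 of 40 had an unadjusted p under 0.05 on the lower side, against 7.67% of all genes. Their log2 changes ran from -0.31 to -0.01 with a median of -0.16, against 0.00 over all genes, and were -0.16 without and -0.17 with anti-PD-1. The list score, which averages each member's log2 CPM after subtracting its mean over the 20 tumours, was 0.00, 0.06, 0.15, 0.02 and 0.24 in IgG tumours and -0.06, -0.03, -0.06, -0.10 and -0.02 in propafenone tumours. Anti-PD-1 tumours scored -0.07, 0.32, 0.10, -0.08 and 0.01 and combination tumours -0.07, -0.05, -0.08, -0.07 and -0.21. The propafenone tumours lay below all IgG tumours, and anti-PD-1 tumours 1 and 4 lay among the combination tumours. The median stayed negative under each alternative tried, at -0.12 with library totals as the scale and -0.07 on TPM. The median of all genes itself moved to 0.04 with library totals and to 0.06 or 0.09 on TPM (pseudocount 1 or 0.1). List medians given below on those scales stand beside these values, not beside 0.

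Genes of oxidative phosphorylation stood in the same direction. Of 36 nuclear genes of complex I, the NADH dehydrogenase, 1 was higher and 29 had an unadjusted p under 0.05 on the lower side (median -0.15, -0.10 without and -0.21 with anti-PD-1). Ndufc2, an accessory subunit, measured 175, 191, 191, 152 and 165 CPM after anti-PD-1 and 146, 132, 151, 141 and 138 CPM after the combination, with no overlap, and 156, 168, 158, 165 and 169 CPM after IgG and 149, 153, 167, 156 and 159.6 CPM after propafenone, with overlap (main difference -0.18 ± 0.05 SE). Ndufa12 stood at -0.24 ± 0.07 SE and Ndufab1, the mitochondrial acyl carrier protein, at -0.14 ± 0.04 SE. Complexes II to V, from succinate dehydrogenase to ATP synthase, had 1 of 38 members higher, 29 at an unadjusted p under 0.05 on the lower side, and a median of -0.16 (-0.08 without and -0.22 with anti-PD-1). Uqcrq of complex III stood at -0.21 ± 0.06 SE, and Cox4i1 and Cox6b1 of cytochrome c oxidase at -0.22 ± 0.06 SE and -0.16 ± 0.05 SE. None of the complex I genes was higher after the combination than after anti-PD-1, and 5 of them and 8 of complexes II to V had an interaction p under 0.05 before adjustment, against 3.04% of all genes. None passed after it.

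All 13 protein genes of mitochondrial DNA were lower, 9 of them at an unadjusted p under 0.05, with a median of -0.22 (-0.20 without and -0.24 with anti-PD-1). The catalytic oxidase subunit mt-Co1 ranged from 7879 to 13990.0 CPM, median 9586, without propafenone and from 7330.0 to 9496 CPM, median 8436, with it, mt-Nd3 of complex I stood at -0.25 ± 0.08 SE and mt-Nd4 at -0.26 ± 0.09 SE. Anti-PD-1 tumour 2 and IgG tumour 5, of low scaling factor, had the highest mt-Co1 levels. Without the 5 tumours above 1000 CPM of Hbb-bs the medians were -0.10 for ribosomal proteins, -0.10 for complex I, -0.12 for complexes II to V and -0.09 for mitochondrial DNA. Each kept its sign in all 20 fits without a single tumour.

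Other mitochondrial groups differed less. Mitophagy genes and VDAC channels had 3 of 16 members higher and a median of -0.15. On the lower side 8 had an unadjusted p under 0.05, against 7.67% of all genes. Fkbp8, an outer membrane mitophagy receptor, stood at -0.23 ± 0.07 SE, and Bnip3l, another such receptor, at -0.21 ± 0.08 SE. Mitochondrial ribosomal proteins (-0.05, 5 of 38 higher), import and quality control genes (-0.07, 5 of 25 higher), the TCA cycle (-0.07, 4 of 17 higher) and fatty acid oxidation (-0.08, 4 of 18 higher) had small negative medians that were at or above 0 on TPM, at 0.03, 0.00, 0.01 and 0.01. On TPM the median of all genes was 0.06 or 0.09, so these lists stayed below it. Prelid1, which carries phosphatidic acid between mitochondrial membranes, stood at -0.18 ± 0.04 SE, and Slc25a20, the acylcarnitine carrier, at -0.22 ± 0.06 SE. Fission and fusion genes had a median of 0.01 that was negative (-0.05) without the 5 tumours rich in haemoglobin, and the fission receptor Mff stood at -0.14 ± 0.05 SE.

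Glycolysis and hypoxia targets had 2 of 24 members higher and 8 at an unadjusted p under 0.05 on the lower side, with a median of -0.16 (-0.08 without and -0.24 with anti-PD-1). Aldoa, the glycolytic aldolase, ranged from 3023 to 4989 CPM, median 3754, without the drug and from 2751 to 3740.0 CPM, median 3287, with it (-0.22 ± 0.07 SE). Eno1, enolase, stood at -0.20 ± 0.05 SE and Ldha, lactate dehydrogenase, at -0.17 ± 0.05 SE. Cholesterol synthesis (-0.04, 0.06 on TPM) and fatty acid synthesis (0.01) had medians near 0. Elovl1, an elongase of very long fatty acids, stood at -0.16 ± 0.04 SE. Lysosome and V-ATPase genes had a median of -0.07, which was 0.00 on TPM, with the proton pump subunit Atp6v0c at -0.24 ± 0.07 SE and Npc2, a cholesterol carrier of the lysosome, at -0.17 ± 0.05 SE.

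The genes that hold back ferroptosis were spread around 0. Of 25 suppressors 7 were higher and 5 had an unadjusted p under 0.05, all 5 lower, with a median of -0.03 that turned to 0.01 with library totals and 0.06 on TPM. Over all genes the medians on those scales were 0.04 and 0.06 or 0.09. Gpx4 measured 242, 255, 269.6, 258 and 292 CPM after IgG and 203, 214, 277, 226 and 256 CPM after propafenone. After anti-PD-1 it measured 221, 353, 281, 212 and 244 CPM and after the combination 220.5, 207, 219.7, 203 and 189 CPM. The groups overlapped in both backgrounds, 4 tumours with propafenone lay below the lowest without it, and the log2 change was -0.25 ± 0.08 SE (95% interval -0.41 to -0.08, adjusted p = 0.29).

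Slc7a11, which imports cystine for glutathione synthesis, measured 11.6, 14.9, 9.08, 14.5 and 13.7 CPM after IgG and 13.4, 7.45, 7.13, 9.24 and 5.23 CPM after propafenone. After anti-PD-1 it spread widely, at 9.54, 6.61, 32.1, 14.2 and 27.2 CPM, and after the combination it measured 10.4, 11.1, 13.04, 14.9 and 9.08 CPM. The log2 change was -0.60 ± 0.23 SE (adjusted p = 0.32), and it ran from -0.71 to -0.45 over the fits without a single tumour. Prdx6, a peroxidase and phospholipase, stood at -0.18 ± 0.06 SE and the quinone reductase Nqo1 at -0.29 ± 0.11 SE.

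Ferroptosis drivers had 8 of 22 tested members higher and a median of -0.10, which was 0.02 on TPM and -0.03 without anti-PD-1 tumour 3. Acsl4, which activates polyunsaturated fatty acids for lipid synthesis, ranged from 24.6 to 48.9 CPM, median 41.8, and from 35.8 to 58.5 CPM, median 43.8 (0.18 ± 0.10 SE, adjusted p = 0.50). Lpcat3, which inserts those acids into phospholipids, stood at -0.16 ± 0.06 SE, opposite in sign to Acsl4, and the channels Vdac2 and Vdac3 at -0.12 ± 0.05 SE and -0.13 ± 0.05 SE. Iron handling genes had 9 of 23 members higher and a median of -0.02 that was 0.03 with library totals. Tfrc, the transferrin receptor, differed by 0.01 ± 0.08 SE (95% interval -0.16 to 0.19), a difference that changed sign in 5 of the 20 fits without a tumour. The ferritin chains Fth1 and Ftl1 stood at -0.16 ± 0.07 SE (-0.11 without anti-PD-1 tumour 2) and -0.17 ± 0.07 SE, the iron-sulphur scaffold Iscu at -0.15 ± 0.05 SE.

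Hmox1, the haem-degrading enzyme that releases iron, ranged from 55.9 to 225 CPM, median 123, without propafenone and from 76.7 to 175 CPM, median 91.7, with it. Its log2 change was -0.28 ± 0.21 SE (95% interval -0.72 to 0.16, adjusted p = 0.61), and no tumour with the drug lay outside the range without it. Without anti-PD-1 tumour 3 the value was -0.10. Haem metabolism genes had a median of -0.06 (0.02 on TPM). Targets of NRF2, the regulator of antioxidant genes, had 2 of 20 members higher and 5 at an unadjusted p under 0.05 on the lower side, with a median of -0.14 (-0.14 without and -0.15 with anti-PD-1), which was -0.09 without anti-PD-1 tumour 2. The glutathione transferase Gstm1 stood at -0.29 ± 0.08 SE and transketolase, Tkt, at -0.16 ± 0.05 SE.

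Targets of ATF4 and of the unfolded protein response had 6 of 20 members higher, 5 at an unadjusted p under 0.05 on the lower and 2 on the higher side, and a median of -0.15 (0.02 without and -0.23 with anti-PD-1). That median ran from -0.21 without propafenone tumour 1 to -0.02 without anti-PD-1 tumour 3. Besides Atf5, Asns, which makes asparagine, ranged from 212 to 377 CPM, median 265, without propafenone and from 182 to 254 CPM, median 216, with it (-0.36 ± 0.09 SE, -0.32 without and -0.39 with anti-PD-1). Phgdh, the entry enzyme of serine synthesis, ranged from 279.6 to 441 CPM, median 339, and from 209 to 326 CPM, median 294 (-0.28 ± 0.08 SE). Below the lowest tumour without the drug lay 5 tumours with it for Asns and 3 for Phgdh, and none lay above the highest. Within this list the differences had opposite signs, from -0.54 to 0.31.

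Heat shock proteins had a median of 0.01 and 9 of 16 members higher, none at an unadjusted p under 0.05. The p53 targets had a median of -0.04 (0.13 without and -0.15 with anti-PD-1), of opposite sign in the backgrounds and positive on TPM (0.07 or 0.10), with Phlda3, an inhibitor of Akt, at 0.08 without and -0.71 with anti-PD-1. AP-1 and immediate early genes had 2 of 18 members higher and a median of -0.18 (0.06 without and -0.44 with anti-PD-1), which was 0.05 without anti-PD-1 tumour 3. Jun itself differed by -0.17 ± 0.21 SE (95% interval -0.60 to 0.27), which turned to 0.02 without the same tumour, and Egr3, an immediate early factor, stood on the higher side at 0.65 ± 0.20 SE. In the JNK cascade the kinases Map3k1 and Map3k5 stood at 0.28 ± 0.12 SE and 0.22 ± 0.10 SE and Map2k7 at -0.14 ± 0.05 SE, with a list median of -0.07 (0.01 on TPM).

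Of 13 subunits of sodium channels, the drug's main targets, 6 passed the filter on low counts, 5 of them higher, none at an unadjusted p under 0.05. Scn1a ranged from 4.36 to 18.3 CPM, median 10.8, without propafenone and from 9.87 to 19.8 CPM, median 13.5, with it (0.32 ± 0.19 SE), and Scn2a stood at 0.30 ± 0.16 SE. Kcnh2, the potassium channel of cardiac repolarisation, differed by -0.05 ± 0.25 SE (95% interval -0.56 to 0.46), a sign that flipped to 0.00 with library totals and to 0.26 without the 5 tumours rich in haemoglobin. Potassium channels had a median of -0.08 (0.03 to 0.05 on TPM) and calcium channels of 0.01 (-0.08 without those 5 tumours).

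Among beta-adrenergic receptors and effectors, 9 of 14 tested genes were higher and the median was 0.04. Adcy5, an adenylyl cyclase, under 1 CPM in every tumour, stood at 1.13 ± 0.34 SE, with 8 of 10 tumours above the highest without the drug and 1 below the lowest. Gnas, the stimulatory G protein chain, stood at -0.10 ± 0.04 SE.

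Cell cycle and replication genes had 27 of 30 members higher, 7 at an unadjusted p under 0.05 on that side (4.51% of all genes) and a median of 0.08 (0.06 without and 0.10 with anti-PD-1), positive under each alternative tried. Cenpf, a kinetochore protein, measured 61.3, 70.8, 66.1, 70.6 and 57.5 CPM after IgG and 85.9, 86.0, 79.3, 77.9 and 91.6 CPM after propafenone, with no overlap. After anti-PD-1 it measured 90.7, 51.7, 56.3, 85.2 and 66.0 CPM and after the combination 78.9, 86.9, 73.5, 85.3 and 84.9 CPM, with overlap, since anti-PD-1 tumours 1 and 4 were as high as tumours given the drug (0.30 ± 0.08 SE). The mitotic motor Cenpe stood at 0.34 ± 0.13 SE and topoisomerase Top2a at 0.25 ± 0.11 SE. Melanocyte and pigment genes had 7 of 19 members higher and none at an unadjusted p under 0.05, with a median of -0.02 that turned positive under library totals (0.03) and TPM (0.08). The median of all genes was positive on those scales too. Mitf, the regulator of pigment genes, ranged from 164 to 819 CPM, median 512, and from 288 to 920.3 CPM, median 622 (0.14 ± 0.23 SE, 95% interval -0.33 to 0.62, 0.03 without anti-PD-1 tumour 3), and genes of the melanoma phenotype switch had a median of 0.05.

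Interferon-responsive genes stood on the higher side as a group. All 18 tested members of the interferon gamma response were higher, 10 at an unadjusted p under 0.05, with a median of 1.01 and a range of 0.34 to 1.33. All 20 tested members of the type I interferon response were higher, also 10 at an unadjusted p under 0.05, with a median of 0.56. In each case 4.51% of all genes had such a p on that side. Low genes that pass a filter through the group where they are high tend to differ, and 2 listed members of each response did not pass it or are not analysed here.

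Promoters of 3 named members of these lists are shown because they hold a match to the letters that interferon-activated factors bind. Ifi44 and Cmpk2, also named and with a smaller p than Gbp5 and Gbp7, had 0 matches. The sequences are the 250 bases before the start in RefSeq (GRCm38.p6), all on the plus strand, at chr19:34583279-34583528 for Ifit3, chr3:142496684-142496933 for Gbp5 and chr3:142530086-142530335 for Gbp7. Capitals mark 2 copies of GAAA with 2 bases between them, a form of the interferon-stimulated response element, which lies here on the minus strand and so reads in reverse complement.
Ifit3: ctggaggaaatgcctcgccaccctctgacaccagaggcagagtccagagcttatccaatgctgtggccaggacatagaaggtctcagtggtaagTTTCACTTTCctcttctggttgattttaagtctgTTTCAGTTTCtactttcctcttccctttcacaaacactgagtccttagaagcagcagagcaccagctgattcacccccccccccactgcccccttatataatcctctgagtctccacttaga
Gbp5: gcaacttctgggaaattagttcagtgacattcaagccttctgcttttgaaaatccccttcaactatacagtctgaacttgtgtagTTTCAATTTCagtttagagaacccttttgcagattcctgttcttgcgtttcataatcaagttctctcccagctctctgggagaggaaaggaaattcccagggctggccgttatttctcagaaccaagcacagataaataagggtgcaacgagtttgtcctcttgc
Gbp7: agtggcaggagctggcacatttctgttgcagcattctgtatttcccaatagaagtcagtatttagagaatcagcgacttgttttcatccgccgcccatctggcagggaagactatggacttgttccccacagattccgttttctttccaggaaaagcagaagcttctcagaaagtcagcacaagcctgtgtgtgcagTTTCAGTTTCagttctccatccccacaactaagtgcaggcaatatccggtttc
The matches lie 156 and 122 bases before the start in Ifit3, 165 in Gbp5 and 53 in Gbp7. Searched on both strands, these letters were in 10 of 12 interferon gamma promoters with an entry (83.3%), in 7 of 16 of the type I list (43.8%) and in 936 of 27025 genes of the table (3.46%). They were also in 6 of 28 ribosomal protein promoters (21.4%) and in 2 of 32 of complex I (6.25%), lists on the lower side. The gamma-activated site TTCNNNGAA was in 6 of 12 and 3 of 16 of those promoters and in 8.13% of all genes. The 3 promoters were chosen after the values and the matches were seen, and a match is a description of letters.

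Gbp7, a guanylate-binding protein of host defence, measured 13.5, 35.9, 13.3, 26.7 and 6.04 CPM after IgG, 6.33, 52.8, 18.1, 64.0 and 17.8 CPM after propafenone, 6.95, 2.40, 16.6, 12.2 and 25.5 CPM after anti-PD-1 and 79.4, 19.1, 61.2, 19.6 and 39.4 CPM after the combination. Propafenone tumours 2 and 4 and combination tumours 1, 3 and 5 exceeded all 10 tumours without the drug, and the others lay among them (1.26 ± 0.48 SE, 0.74 without and 1.78 with anti-PD-1). Gbp5, which supports inflammasome assembly, stood at 1.23 ± 0.47 SE and ranged from 0.991 to 5.07 CPM, median 2.11, without the drug and from 1.05 to 16.7 CPM, median 5.57, with it. The antiviral gene Ifit3 measured 5.46, 15.2, 6.85, 12.2 and 4.31 CPM after IgG and 4.58, 19.1, 19.5, 21.9 and 12.2 CPM after propafenone, 5.10, 5.65, 17.7, 6.46 and 14.3 CPM after anti-PD-1 and 28.8, 11.5, 24.8, 13.9 and 19.1 CPM after the combination. For Ifit3, 6 of 10 tumours with the drug exceeded the highest without it (0.90 ± 0.31 SE, 0.81 without and 0.99 with anti-PD-1). Ifi44 stood at 1.19 ± 0.32 SE and Cmpk2, a mitochondrial nucleotide kinase induced by interferon, at 0.57 ± 0.21 SE. Adjusted p of these genes ran from 0.29 to 0.32.

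By list score, interferon gamma response tumours spread over about 4 log2 units. IgG tumours scored -0.43, 0.82, -0.36, 0.39 and -1.44 and propafenone tumours -1.60, 1.19, -0.35, 1.47 and -0.42. Anti-PD-1 tumours scored -1.52, -2.49, 0.33, -0.75 and 0.50 and combination tumours 1.89, 0.12, 1.62, 0.06 and 0.97. The median difference was 0.47 without and 1.49 with anti-PD-1, and no member passed the interaction test even before adjustment. Without the 5 tumours rich in haemoglobin the medians were 0.79 for interferon gamma and 0.51 for type I interferon, and over the fits without a single tumour 0.85 to 1.21 and 0.47 to 0.66.

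**Figure D2:**
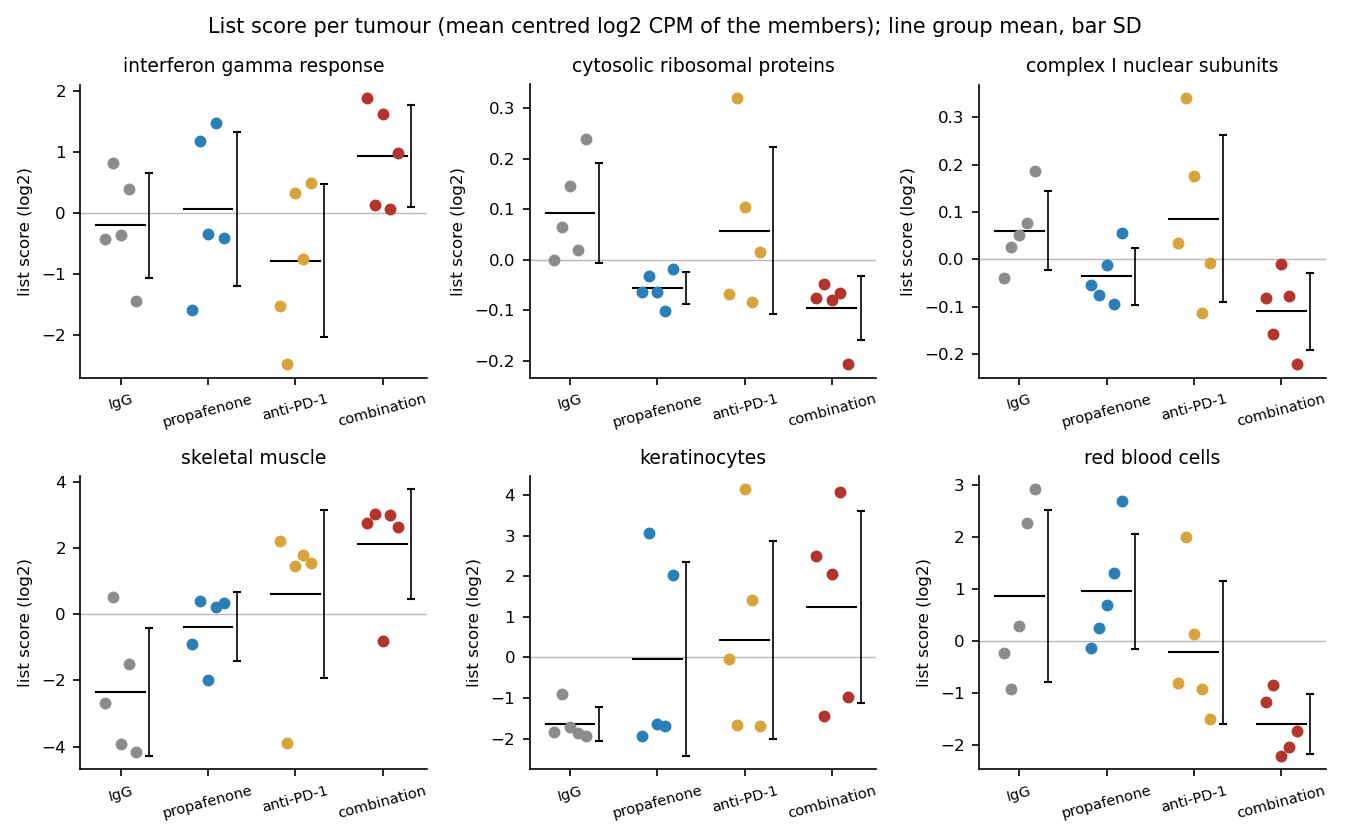
List score (y axis, log2) in each of the 4 groups (x axis) for 6 gene lists; each point is 1 of 5 tumours, lines are group means and bars are the SD. Ribosomal protein and complex I scores have lower group means with propafenone in both backgrounds, the interferon gamma score has its highest mean in combination tumours, and skeletal muscle, keratinocyte and red blood cell scores vary over several log2 units between tumours of a group.

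MHC class I presentation genes were all 20 higher in the main effect, but 1 had an unadjusted p under 0.05. The median was 0.26 (-0.01 without and 0.59 with anti-PD-1), and it was 0.07 without the 5 tumours rich in haemoglobin, and ran from 0.15 (without propafenone tumour 4) to 0.44 (without IgG tumour 2) over the fits without a single tumour. Nlrc5, which activates MHC class I genes, stood at 0.88 ± 0.38 SE (0.31 without and 1.46 with anti-PD-1). For H2-Q7 and H2-Q6, near-identical class I genes whose reads are hard to tell apart, the values were 0.64 ± 0.33 SE and 0.69 ± 0.35 SE. MHC class II genes had 10 of 11 members higher with a median of 0.30 (-0.30 without and 0.71 with anti-PD-1), -0.03 without those 5 tumours, and running from 0.12 (without combination tumour 1) to 0.68 (without IgG tumour 2) over the fits without a single tumour. Ciita, their activator, stood at 1.26 ± 0.55 SE. Cd274, the PD-1 ligand induced by interferon gamma, ranged from 3.30 to 11.97 CPM, median 6.30, without propafenone and from 4.85 to 16.8 CPM, median 9.77, with it (0.61 ± 0.23 SE, adjusted p = 0.31). Immune checkpoint genes had 15 of 19 members higher and a median of 0.36 (0.24 without IgG tumour 3 or without anti-PD-1 tumour 1), while Nectin2, a ligand of TIGIT, stood lower at -0.28 ± 0.08 SE.

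Markers of infiltrating cells also stood on the higher side, and in whole tumours more cells of a type and more RNA per cell cannot be told apart. All 20 macrophage and monocyte genes were higher, 7 at an unadjusted p under 0.05 (median 0.45, 0.22 without and 0.73 with anti-PD-1). The median of these genes ran from 0.37 without anti-PD-1 tumour 1 to 0.70 without IgG tumour 4. Their summed level ranged from 47.4 to 218 CPM after IgG, from 73.0 to 233 CPM after propafenone, from 145 to 271 CPM after anti-PD-1 and from 237 to 530 CPM after the combination. Fcgr1, the high-affinity IgG receptor, stood at 0.93 ± 0.30 SE, Ly6c2 of inflammatory monocytes at 1.17 ± 0.40 SE and the chemokine receptor Cx3cr1 at 1.31 ± 0.45 SE, the last at or under 1.58 CPM in all tumours. Alternatively activated macrophage genes, which include Chil3, had 11 of 12 members higher (median 0.43, from 0.26 without combination tumour 3 to 0.71 without IgG tumour 4), with the lectin Mgl2 at 0.92 ± 0.29 SE. Complement genes had 18 of 20 higher (median 0.45, 0.06 without and 0.74 with anti-PD-1). The anaphylatoxin receptor C5ar1 stood at 0.74 ± 0.27 SE.

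Chemokines had 15 of 19 members higher and 6 at an unadjusted p under 0.05 on that side (median 0.51, 0.06 without and 0.76 with anti-PD-1). The monocyte attractant Ccl2 measured 3.24, 5.21, 2.93, 6.04 and 5.27 CPM after anti-PD-1 and 10.7, 11.3, 10.8, 9.23 and 13.04 CPM after the combination, with no overlap. After IgG it measured 2.49, 2.21, 3.65, 5.93 and 5.23 CPM and after propafenone 1.72, 6.16, 3.25, 9.73 and 3.36 CPM, with overlap (main difference 0.80 ± 0.27 SE). Its neighbours Ccl7 and Ccl12, which act on the same receptor, stood at 0.91 ± 0.28 SE and 0.82 ± 0.26 SE. TNF and NF-kappaB targets had a median of 0.03, with the subunit Rela at -0.14 ± 0.05 SE.

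Lymphocyte genes were low and variable. Cytotoxic and NK cell genes were higher in 15 of 15, 3 at an unadjusted p under 0.05 (median 0.84, 0.55 without and 1.04 with anti-PD-1). Of 17 listed members 15 were tested, and some low ones passed the filter mainly through tumours given the drug. The direction of such genes is in part set by the filter, so the count of 15 is a description only. This limit holds for low genes of the other cell type lists too. Prf1, the pore-forming protein of killer cells, measured 0.311, 0.565, 0.614, 0.836 and 0.0737 CPM after IgG and 0.191, 1.04, 0.569, 2.26 and 0.407 CPM after propafenone, 0, 0.211, 1.197, 0.362 and 0.967 CPM after anti-PD-1 and 3.30, 0.821, 1.31, 0.516 and 1.79 CPM after the combination (1.20 ± 0.56 SE, adjusted p = 0.40). Gzmb, a killer cell protease, stood at 0.99 ± 0.59 SE (95% interval -0.24 to 2.22), and Ifng, at or under 0.502 CPM in all tumours and at 0 in 6, at 0.88 ± 0.81 SE. Ifng ran from 0.46 without combination tumour 1 to 1.47 without IgG tumour 2. Cd8a, the coreceptor of killer T cells, stood at 0.84 ± 0.56 SE, at 0.54 without combination tumour 1, and Pdcd1, which codes for PD-1, at 0.67 ± 0.56 SE, from 0.42 without combination tumour 1 to 1.02 without anti-PD-1 tumour 3. T cell genes had 18 of 20 higher (median 0.49, 0.26 without propafenone tumour 4), and the median was -0.29 among members averaging at least 1 CPM.

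Dendritic cell genes had 10 of 13 tested members higher (median 0.48, 0.13 without and 0.76 with anti-PD-1). Flt3, the growth factor receptor of dendritic cell precursors, at or under 0.801 CPM, stood at 2.31 ± 0.70 SE. Its group means were 0.049 CPM after IgG, 0.25 after propafenone, 0.095 after anti-PD-1 and 0.49 after the combination. Flt3 thus passed the filter on low counts through tumours given the drug, and its direction follows in part from that. Naaa, a lysosomal amidase, differed by 0.13 without and 0.76 with anti-PD-1. Ighm, the IgM heavy chain, measured 5.56, 3.57, 8.002, 5.76 and 5.10 CPM after the combination against 1.05, 0.288, 0.765, 0.898 and 1.06 CPM after anti-PD-1, with no overlap, but 0.588, 1.12, 0.309, 1.53 and 0.440 CPM after propafenone against 0.294, 1, 0.232, 2.56 and 0.516 CPM after IgG. Its interaction had an adjusted p of 0.99. B cell, mast cell and neutrophil lists had 8 of 14, 8 of 12 and 6 of 14 members past the filter. Their medians were 0.47, 0.62 and 0.05, at -0.03, 0.09 and -0.41 without anti-PD-1 and 0.86, 0.80 and 0.52 with it. The mast cell median was 0.37 without propafenone tumour 2 and -0.02 among members averaging at least 1 CPM.

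Lists of fibroblast and matrix genes had medians close to 0 over both backgrounds and of opposite sign in them, while the endothelial median was negative in both. Fibroblast genes had a median of 0.01, made of -0.28 without and 0.29 with anti-PD-1, which was 0.32 without the 5 tumours rich in haemoglobin and 0.00 with 1 mean per group. Postn, a matrix protein of activated fibroblasts, measured 14.8, 20.1, 14.6, 22.9 and 18.3 CPM after IgG and 15.6, 24.9, 11.6, 20.3 and 22.8 CPM after propafenone, 34.9, 27.4, 42.9, 32.6 and 34.4 CPM after anti-PD-1 and 56.3, 39.8, 60.2, 51.6 and 47.7 CPM after the combination. Anti-PD-1 separated these levels more than propafenone did, whose main difference was 0.32 ± 0.13 SE (adjusted p = 0.35). Small leucine-rich proteoglycans had a median of 0.04 (-0.23 without and 0.25 with anti-PD-1), which was 0.00 with 1 mean per group, metalloproteases and inhibitors of -0.02 (0.03 with library totals), TGF-beta genes of -0.02 (0.02 with library totals) and the insulin-like growth factor system of -0.02 (0.03 with library totals). Endothelial genes had 4 of 20 members higher and a median of -0.10 (-0.29 without and -0.02 with anti-PD-1), which ran from -0.16 without combination tumour 1 to -0.04 without propafenone tumour 3, with Cldn5, the tight junction protein of vessels, at -0.52 ± 0.19 SE. Kcnj8 and Abcc9, both subunits of the potassium channel of pericytes, stood at -0.64 ± 0.21 SE and -0.45 ± 0.17 SE, in a list with a median of -0.10 (0.03 without the 5 tumours and 0.02 without IgG tumour 5).

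Markers of skeletal muscle, keratinocytes, red blood cells, adipocytes and Schwann cells are given next, and the origin of their RNA was not tested. All 21 skeletal muscle genes were higher with propafenone (median 0.93, 6 at an unadjusted p under 0.05), and their summed level ranged from 17.3 to 130.2 CPM after IgG, 31.1 to 109 CPM after propafenone, 22.9 to 413 CPM after anti-PD-1 and 60.6 to 727 CPM after the combination. Over the fits without a single tumour the list median ran from 0.75 without anti-PD-1 tumour 2 to 1.54 without IgG tumour 2. Myosin Myh4 of fast fibres measured 0.0982, 0.984, 0, 0.597 and 0 CPM after IgG, 0.604, 6.08, 0.130, 4.27 and 3.73 CPM after propafenone, 14.0, 0.0768, 1.45, 4.78 and 15.2 CPM after anti-PD-1 and 58.9, 40.3, 6.34, 48.9 and 58.3 CPM after the combination (2.79 ± 0.76 SE). Above the highest IgG tumour also lay 3 of 5 propafenone and 4 of 5 anti-PD-1 tumours. Keratinocyte genes summed to at most 5.62 CPM in IgG tumours, against up to 28.5, 102 and 45.9 CPM after propafenone, anti-PD-1 and the combination. The median sums were 4.72 CPM after IgG, 4.41 after propafenone, 7.01 after anti-PD-1 and 13.2 after the combination. Of the propafenone group only tumours 2 and 5 had a positive list score. In IgG tumours 6 of 13 tested genes (Krt1, Krt15, Krt77, Lor, Sprr1a and Dsg1a) were at 0 in all 5. Those genes passed the filter on low counts only through other groups. The list median was 5.54 without and 0.01 with anti-PD-1. Red blood cell genes were lower in 10 of 10 (median -1.32, -0.49 without and -2.15 with anti-PD-1), and the median was -0.16 without the 5 tumours above 1000 CPM of Hbb-bs and -0.58 without anti-PD-1 tumour 2. Their summed level ranged from 356 to 11800 CPM, median 953, after IgG and from 828 to 6687 CPM, median 1313, after propafenone, so that the median tumour was higher with the drug there. It ranged from 361 to 5860 CPM, median 491, after anti-PD-1 and from 223 to 509 CPM, median 379, after the combination. Adipocyte genes had 9 of 10 higher (0.83) and Schwann cell genes 8 of 10 (0.08, 0.04 without propafenone tumour 3). The median sum of Schwann cell genes hardly differed, at 1172 CPM after IgG, 1145 after propafenone and 1121 after anti-PD-1 and after the combination. The part of these tissues in the interferon, macrophage and energy gene differences was not tested.

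**Figure D3:**
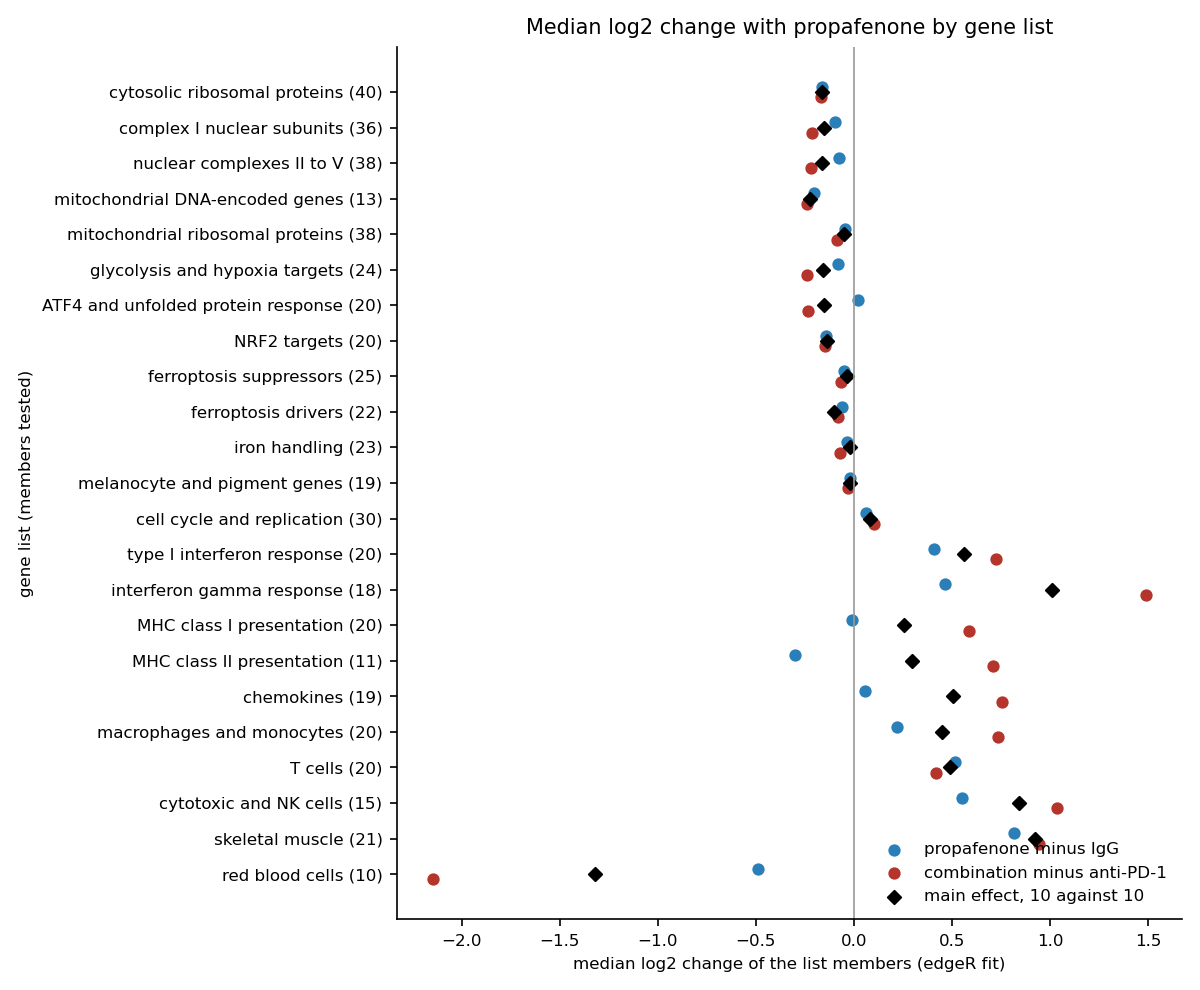
Median log2 change of list members (x axis) for 23 gene lists (y axis, members tested in brackets), as propafenone minus IgG (blue), combination minus anti-PD-1 (red) and the main effect of 10 against 10 tumours (black diamonds). Energy and ribosomal lists lie between -0.25 and 0, and interferon, macrophage and cytotoxic lists lie above 0, most of them further out with anti-PD-1.

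The 2 backgrounds share no tumour. Their log2 changes had the same sign for 9480 genes (59.7%), and across genes, which are not independent replicates, Pearson's r was 0.17 and Spearman's rho 0.21. Of the 100 genes with the smallest p on the lower side without anti-PD-1, 86 were lower with it too, against 52.1% of all genes, with a median of -0.12. Of the 100 on the higher side 71 were higher, against 47.9%, with a median of 0.07. Chosen with anti-PD-1, 83 of 100 lower genes and 74 of 100 higher genes kept their sign without it, against 49.1% and 50.9%, with medians of -0.07 and 0.19. In the chosen background those 4 sets had medians of -0.28, 0.40, -0.27 and 0.87, so the differences in the other background were smaller.

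**Figure D4:**
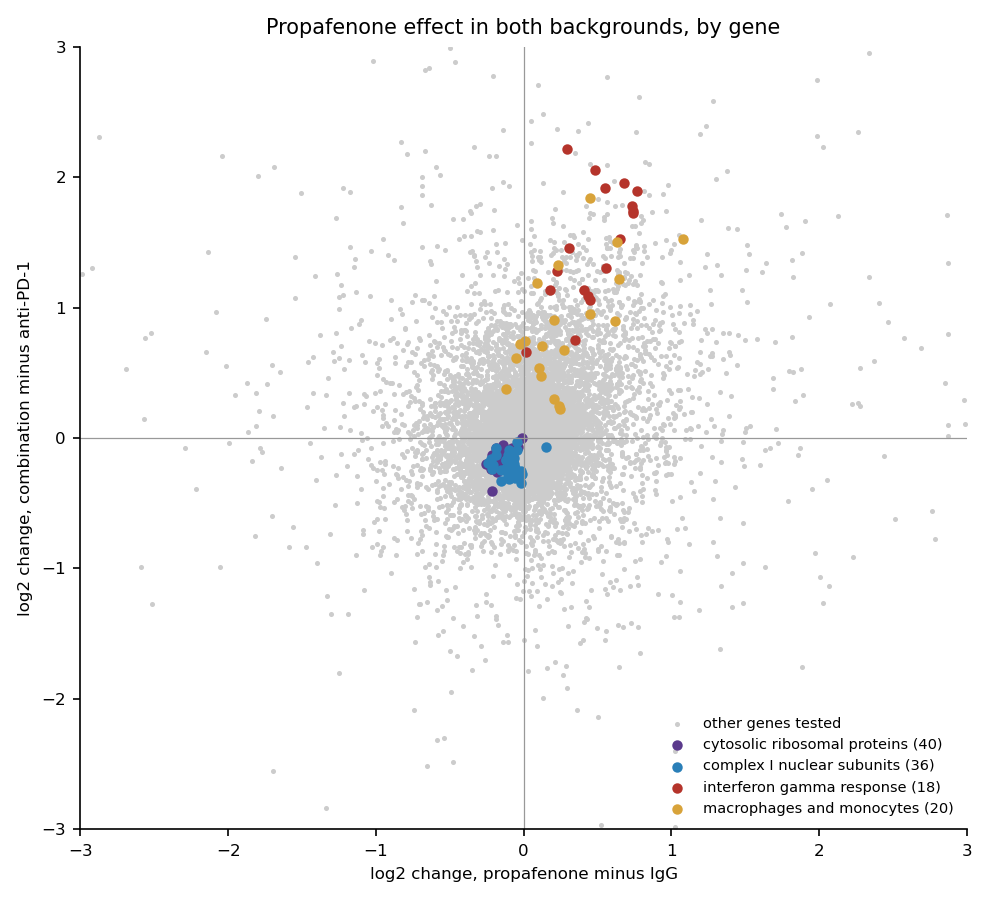
Log2 change of each tested gene as propafenone minus IgG (x axis) and combination minus anti-PD-1 (y axis), with 4 gene lists in colour; 42 genes beyond 3 log2 units on either axis are not shown. Ribosomal and complex I genes lie in a tight cluster at lower left, and interferon gamma and macrophage genes spread at upper right, further along the y axis.

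The share of genes on each side depended on transcript length, level and scaling. In 5 bins of genes ordered by their longest annotated transcript, the median log2 change went from -0.07 among the 3175 shortest (66 to 1751 bases) to 0.04 among the 3174 longest (from 5042 bases), and this held in both backgrounds, from -0.06 to 0.05 without and from -0.08 to 0.02 with anti-PD-1. The ribosomal protein, complex I and mitochondrial DNA lists had median lengths of 1114.5, 1025.5 and 784 bases, and the interferon gamma list 3324.5 bases. In 5 bins ordered by level, 88 genes were higher and 598 lower at an unadjusted p under 0.05 among the most abundant, and 128 higher and 43 lower among the least. The part of length and level in the ribosomal and energy gene differences was not tested. With TMM 716 genes were higher and 1218 lower at that p, with DESeq2 size factors in edgeR 846 and 975, with library totals 1148 and 582, and on log2(TPM + 1) 2087 and 270, as the median of all genes moved from 0.00 to 0.01, 0.04 and 0.06. The side with more genes at that p thus differed between scalings.

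**Figure D5:**
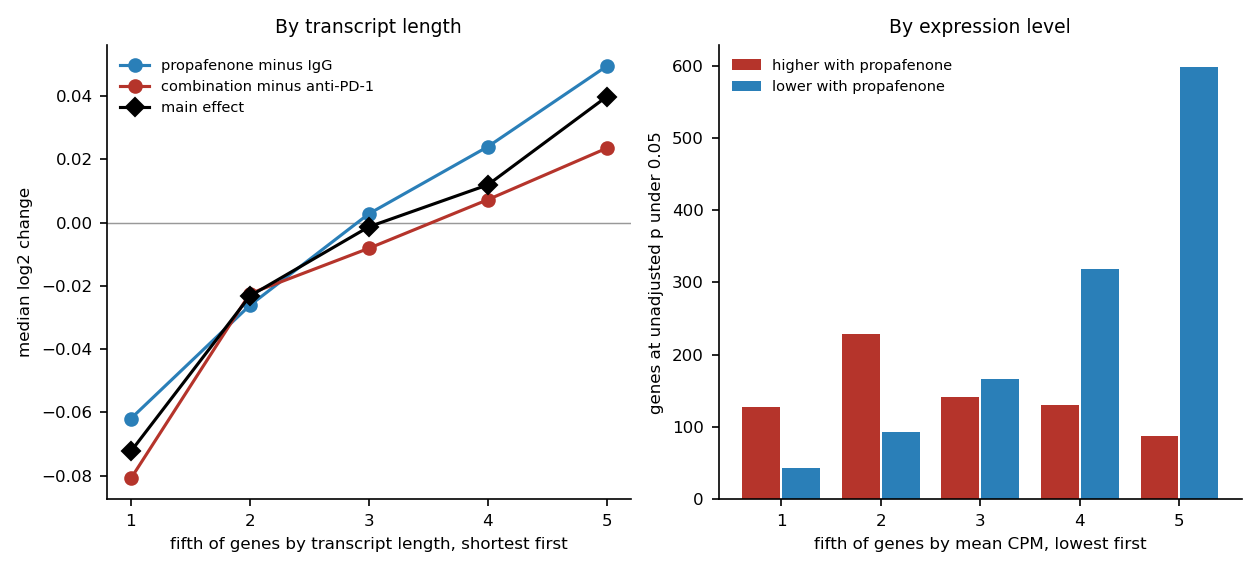
Left, median log2 change (y axis) in 5 bins of genes ordered by transcript length (x axis) in the main effect and in each background; right, number of genes at an unadjusted p under 0.05 (y axis, from 0), higher and lower, in 5 bins ordered by mean CPM (x axis). The median goes from -0.07 in the shortest bin to 0.04 in the longest, and lower genes number 598 in the most abundant bin.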

How the data were processed

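RNA of 20 B16F10 tumours was sequenced from libraries made with a SMARTER mRNA kit, per the labels' protocols. The authors deposited a table of estimated counts, stored as whole numbers, and a table of TPM per gene. All columns were mapped to samples by name and 0 were left over. FastQC, HISAT2 2.2.1, SAMtools 1.9 and the build GRCm38 (mm10) are named in the submitters' processing notes. The counting tool, the annotation, the use of strand and the treatment of reads that map to several genes are not given in the sources used here. The commonest count above 0 was 4, with a further peak at 8, so counts may not be single fragments, and counts divided by 4 were tried as an alternative.

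Genes with low counts were removed by filterByExpr on the 4 groups (15875 of 32285 kept, 99.98% of counts), and libraries were scaled by TMM. The main test was edgeR's robust quasi-likelihood test (edgeR 4.0.16, R 4.3.3) with propafenone and anti-PD-1 as additive factors and 17 residual degrees of freedom, with Benjamini-Hochberg adjustment over all genes tested and a threshold of 0.05. Values within backgrounds and the interaction came from a fit with 1 mean per group (16 residual degrees of freedom). Depth was 55985437 to 64514815 counts per tumour, edgeR's common coefficient of biological variation came to 0.252, and the p-values measure the spread between tumours.

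The members and the 59 gene lists were chosen with earlier results of these data known. Named genes were the 8 with the smallest p in each direction with a mean of at least 1 CPM, an ordinary symbol and the same sign in both backgrounds and in all 20 fits without 1 tumour, a panel of genes of interest, and up to 3 members of each list with the smallest p. Mx1, Mx2, Cxcl11 and Ahsp are not analysed here, and some genes that the rule names are not reported here. Alternatives were DESeq2 1.42.0, limma 3.58.1 (voom, and log2 TPM with a pseudocount of 1 or 0.1), other scalings and filters, a replicate block, each tumour left out, and 2 sets of tumours left out after the data were seen. No tumour pair agreed within sampling noise (lowest chi-square per degree of freedom 4.2 within a group). Transcript lengths are from GENCODE and promoters from RefSeq (GRCm38.p6).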

Additional observations from a re-analysis of the deposited data

Results flagged for a closer look

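In 188 groups of 5 tumours (33 genes and 14 lists in the 4 groups), 14 had a highest or lowest tumour set far apart from the other 4; chance flags about 1 in 20 groups. Mitf, the melanocyte regulator, was flagged in 3 groups: IgG tumour 2 was low at 260.5 CPM (others 477 to 602), anti-PD-1 tumour 3 low at 164 CPM (519 to 819) and combination tumour 1 high at 920.3 CPM (608 to 658).

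Among other genes, Safb2 was low in combination tumour 1 at 80.3 CPM (88.8 to 92.0) and Rplp1 low in combination tumour 5 at 498 CPM (568.1 to 592). Mif was high in propafenone tumour 4 at 624 CPM (554 to 568.4), while Acsl4 was low in the same tumour at 38.5 CPM (52.5 to 58.5). Hmox1 was high in combination tumour 3 at 139 CPM (76.7 to 85.2), and Ifng was high in combination tumour 1 at 0.502 CPM (0.0742 to 0.142). Kcnh2 was high in anti-PD-1 tumour 2 at 2.50 CPM (1.10 to 1.28).

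Among list scores, ribosomal proteins were low in combination tumour 5 at -0.21 (others -0.08 to -0.05). Skeletal muscle was low in anti-PD-1 tumour 2 at -3.89 (1.46 to 2.202) and in combination tumour 3 at -0.82 (2.62 to 3.02). Keratinocytes were high in IgG tumour 2 at -0.89 (-1.93 to -1.72). The cause of these values was not tested.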

How the results depend on the processing

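For the main effect, edgeR called 0 genes under every alternative run with it, voom and both TPM fits called 0, and DESeq2 called 2 genes, 1 higher and 1 lower. DESeq2 also called 3 genes without anti-PD-1 (Pcdhga10, Krt1 and Krt77) and 7 with it (Krt77, Atp5c1, Ndufc2, Naaa, Rps27l, Tmem126a and Ighm). In the interaction it called 2 (Pcdhga10 and Krt1). Log2 changes were -22.4 for Pcdhga10, 22.7 for Krt1 and 23.3 for Krt77 without anti-PD-1, and 24.2 for Krt77 with it. In the interaction they were 21.9 for Pcdhga10 and -23.7 for Krt1. Krt1 and Krt77 were at 0 in all IgG tumours and Krt77 in all anti-PD-1 tumours. Their changes within a background are thus against a group at 0. On log2(TPM + 1), 2 genes passed with anti-PD-1 (Chrdl1 and Ighm). Leaving out 1 tumour gave 0 to 1 genes with anti-PD-1, the 1 being Pcdhga8 without combination tumour 3, and 0 in all 20 fits of the main effect, with 1370 to 2453 genes at an unadjusted p under 0.05. Of genes higher without anti-PD-1, the 50 with the smallest p had a median of 0.10 in the other background. That median was 0.07 for 100 genes and 0.08 for 200.

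No direction was reversed in 30 of 33 genes followed. The 8 leading genes in each direction had been chosen for keeping their sign in all 20 fits without 1 tumour. Their lack of a reversal in those fits was thus fixed in advance. Kcnh2 turned to 0.0048 with library totals, 0.0086 on log2(TPM + 0.1), 0.11 without the 2 tumours of low scaling factor and 0.26 without the 5 rich in haemoglobin, and ran from -0.18 to 0.10 over the fits without 1 tumour. Tfrc turned to -0.039 and -0.016 without those sets and ran from -0.016 to 0.058 over those fits, and Jun ran from -0.29 to 0.023. The cause was not tested.

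The 30 same-numbered pairs of tumours had a mean correlation of -0.0078 (-0.387 to 0.335), and 7 of 20 tumours correlated best with their own number. That count was not set against its chance level, so whether replicate numbers pair some tumours was not settled. With the replicate block 0 genes passed, with 1833 at an unadjusted p under 0.05, and the block changed no other call. Genes under 1 CPM, such as Ifng and Flt3, rest on few counts.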
